A study of Mus musculus with 23 samples.

Results

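The 10 genes described here encode secreted inflammatory signals of muscle cells: the chemokines Ccl2, Ccl5, Ccl7, Cxcl1, Cxcl5, Cxcl10, Cxcl12 and Cx3cl1, and the cytokines Il6 and Lif. They were taken by gene symbol from the deposited tables, which hold 32793 genes, and all 10 were among the 14187 genes with enough counts to be tested. The cells were C2C12, an established mouse myoblast line that stops dividing and fuses into myotubes after serum is withdrawn. Poly(A)-selected RNA was sequenced from control cells (WT) and cells labelled Runx1KO (KO), 23 libraries in 8 groups. Day 0 cultures were dividing in medium with 20% fetal bovine serum (2 WT and 3 KO libraries). The day 1, day 3 and day 6 cultures had been moved to medium with 2% horse serum (3 WT and 3 KO libraries on each day). The library titles say day 6 for the last time point where the series text says 5 days, and the titles are followed. The labels do not say how Runx1 was edited, whether the edited line is 1 clone, or whether replicates came from separate cultures, so p-values measure only the spread between these libraries, which may be technical.

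Chemokines are small secreted proteins that guide the migration of cells through G protein-coupled receptors, and they are grouped by the spacing of their conserved cysteines. Ccl2 and Ccl7 attract monocytes through Ccr2, Cxcl1 and Cxcl5 attract neutrophils through Cxcr2, Ccl5 and Cxcl10 attract lymphocytes, and Cxcl12 acts through Cxcr4 and Ackr3 on progenitor cells. Cx3cl1 is made as a membrane-bound chemokine and can be shed. Il6 and Lif are cytokines of 1 family that signal through the shared receptor chain Il6st and the Jak-Stat3 pathway, and both are released by contracting or injured muscle, where Lif is known as a mitogen for myoblasts.

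Promoter sequence is shown for members that followed different courses below, together with the short motifs by which inducible inflammatory genes are usually recognised. Each sequence is the 250 bases before the transcription start in RefSeq's annotation of GRCm38.p6, the assembly also called mm10, written 5′ to 3′ on the gene's strand. Of the 10 genes, 6 matched an entry (Cxcl1, Cxcl10, Cxcl12, Cx3cl1, Il6 and Lif), and Ccl2, Ccl5, Ccl7 and Cxcl5 did not. Capitals mark matches on either strand to the kappaB motif, to the interferon-response motif (GAAA, a pair of any bases, GAAA), to the AP-1 motif TGANTCA and to the Runx motif TGTGGT, and overlapping matches are merged.
Cxcl10, chr5:92348890-92349139, minus strand: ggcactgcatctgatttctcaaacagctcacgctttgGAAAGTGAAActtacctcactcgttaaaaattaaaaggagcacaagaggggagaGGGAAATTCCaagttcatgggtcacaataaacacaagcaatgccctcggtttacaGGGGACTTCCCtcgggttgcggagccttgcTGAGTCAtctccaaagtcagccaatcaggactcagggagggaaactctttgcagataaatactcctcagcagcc
Il6, chr5:30012864-30013113, plus strand: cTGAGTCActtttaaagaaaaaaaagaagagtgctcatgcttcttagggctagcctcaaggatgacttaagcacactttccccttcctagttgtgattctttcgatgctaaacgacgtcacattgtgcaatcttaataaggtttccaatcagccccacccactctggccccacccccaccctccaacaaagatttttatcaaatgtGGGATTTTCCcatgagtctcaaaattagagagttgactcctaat
Cxcl1, chr5:90890995-90891244, plus strand: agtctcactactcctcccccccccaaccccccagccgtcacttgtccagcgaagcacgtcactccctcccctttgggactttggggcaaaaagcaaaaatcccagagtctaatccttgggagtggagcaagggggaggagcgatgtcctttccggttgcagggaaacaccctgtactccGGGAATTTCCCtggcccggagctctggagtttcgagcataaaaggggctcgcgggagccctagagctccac
Lif, chr11:4257318-4257567, plus strand: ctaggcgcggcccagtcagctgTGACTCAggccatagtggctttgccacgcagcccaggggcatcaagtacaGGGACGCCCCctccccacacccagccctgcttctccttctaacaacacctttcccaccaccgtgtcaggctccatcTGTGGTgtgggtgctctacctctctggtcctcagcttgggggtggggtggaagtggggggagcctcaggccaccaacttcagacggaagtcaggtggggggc
Cxcl12, chr6:117168285-117168534, plus strand: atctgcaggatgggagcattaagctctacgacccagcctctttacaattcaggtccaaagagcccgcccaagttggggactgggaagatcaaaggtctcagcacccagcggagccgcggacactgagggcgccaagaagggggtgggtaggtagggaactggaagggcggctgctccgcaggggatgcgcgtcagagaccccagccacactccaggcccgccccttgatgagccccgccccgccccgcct

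The Cxcl10 window held the interferon-response motif 213 to 204 bases before the start, kappaB matches at 159 to 150 and at 104 to 94, and an AP-1 match at 74 to 68. The Il6 window held a kappaB match at 44 to 35 and an AP-1 match at 249 to 243. In Cxcl1 the only match to any of the motifs was a kappaB match at 71 to 61. The Lif window held a kappaB match at 178 to 169, an AP-1 match at 228 to 222 and the single Runx match of the 6 windows, at 102 to 97. The Cxcl12 window printed above and the Cx3cl1 window held none of these letter strings. Of 32536 promoter windows of the same length, 7.278% held the kappaB motif, 2.978% the interferon-response motif, 6.728% AP-1 and 13.963% Runx. A match describes the letters and shows no binding.

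Several members share a chromosome. Ccl2 (chr11:82035577-82037452) and Ccl7 (chr11:82045712-82047525) lie 8259 bases apart with 0 protein-coding genes between them, and Ccl5 (chr11:83525778-83530518) lies further along the same chromosome, with 29 protein-coding genes between it and Ccl7. Cxcl5 (chr5:90759298-90761625) and Cxcl1 (chr5:90891245-90893121) lie 129619 bases apart with 4 protein-coding genes between them. Cxcl10 (chr5:92346638-92348889) and Il6 (chr5:30013114-30019975) are on the same chromosome as that pair, Lif is at chr11:4257568-4272514, Cxcl12 at chr6:117168535-117181368 and Cx3cl1 at chr8:94772180-94782427. Whether the counting used strand is not stated. Art3, which overlaps Cxcl10, had between 0 and 35 counts per library. The other annotated overlaps (Gm32650 with Ccl5, Gm51543 with Cx3cl1 and A230098N10Rik with Il6) have no row in the tables, so their reads could not be separated from those genes.

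Each library held 22197606 to 23684077 counts, a range of 1.07 times. Levels are given as CPM (counts scaled to a common library size) on scaled library sizes, where 3 counts correspond to 0.126 to 0.140 CPM. Changes are given as log2 fold changes (log2FC) from edgeR's quasi-likelihood test. Their standard error (SE) was worked back from that test, as the absolute log2FC divided by the square root of the F statistic, and is approximate. A gene was called when its Benjamini-Hochberg adjusted p over all tested genes was under 0.05. Runx1 mRNA was higher, not lower, in the libraries labelled KO: 118 to 122 CPM against 83.9 to 84.0 in WT on day 0, and 297 to 320 against 146 to 165 on day 6, with log2FC of 0.51, 0.35, 0.54 and 1.02 on days 0, 1, 3 and 6. An mRNA level does not show whether protein was made, so the genotype is given as the library label throughout. The KO day 1 replicate 2 library stood apart from both of its partners, with a chi-square per degree of freedom of 58.8 and 58.4 against 3.07 to 27.3 for all other replicate pairs, and for KO day 1 calls that were lost without it, and for Cxcl5 and Cx3cl1, the value without it is also given. Muscle markers (9 genes, among them Des, Myog and Acta1) summed to 1547 to 1620 CPM in WT on day 0 and 3313 to 3525 on day 6, and to 2270 to 2383 and 10991 to 13366 in the libraries labelled KO. Fibroblast markers (7 genes) summed to 1408 to 1602 and 12480 to 15572 CPM in WT and to 506 to 723 and 5091 to 5253 in KO, mostly Col1a1 and Col3a1 mRNA, with Thy1 at 0 counts in every library. The 6 tested fibroblast markers did not all go the way of that sum: 1 was higher and 4 lower in KO on day 0, 1 and 5 on day 1, 2 and 4 on day 3, and 2 and 3 on day 6, where Col1a1 had a log2FC of -2.80 and Ly6a one of 2.56. Of the leukocyte markers, Adgre1 and Tyrobp were at 0 counts in every library, Ptprc reached 1 count and Lyz2 4. Of the 10 leukocyte markers, 3 had enough counts to test, and on day 6 Cd68 was higher in KO (10.7 ± 1.09 CPM, SD, n = 3, against 3.32 ± 1.26 in WT), Csf1r was lower (0.567 ± 0.0812 against 2.34 ± 0.628) and Itgam was not called. None of the 6 endothelial markers averaged 1 CPM in any group.

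In growing cells on day 0, 2 of the 10 genes differed between the labels, where 17.5% of all tested genes did. Both were lower in KO: Cxcl5 and Cxcl12. On day 1, 5 genes differed (42.2% of tested genes; 4 without KO day 1 replicate 2), on day 3, 9 (43.2%), and on day 6, 8 (42.9%). The counts on days 0 and 1 were thus near the share in all genes, and those on days 3 and 6 were above it. By direction, 3 were higher and 2 lower in KO on day 1, 7 and 2 on day 3, and 6 and 2 on day 6, where between 22% and 24% of tested genes were called higher and between 19.2% and 20.8% lower on those days. On the log2(TPM + 1) scale the share of called genes that were higher in KO went from 42.1% to 31.3% on day 0, 54.4% to 43.3% on day 1, 55.5% to 34.3% on day 3 and 51.4% to 34.9% on day 6, while no called value of a member changed sign in any setting. The median log2FC of the 10 genes was -0.29, 0.31, 1.13 and 0.97 on days 0, 1, 3 and 6, against -0.001, 0.03, 0.04 and 0.004 over all tested genes. The test of whether the KO minus WT difference had moved away from its day 0 value (the interaction) called 3 members on day 1 (3.95% of tested genes), 8 on day 3 (10.7%) and 7 on day 6 (13%). With 1 exception, Lif on day 3, those calls were shifts upwards in KO relative to WT. Among all genes called for the interaction, the share shifted upwards was 66.8%, 62.1% and 58.2% on days 1, 3 and 6, and 51.4%, 45.2% and 51.6% on the log2(TPM + 1) scale.

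**Figure D1:**
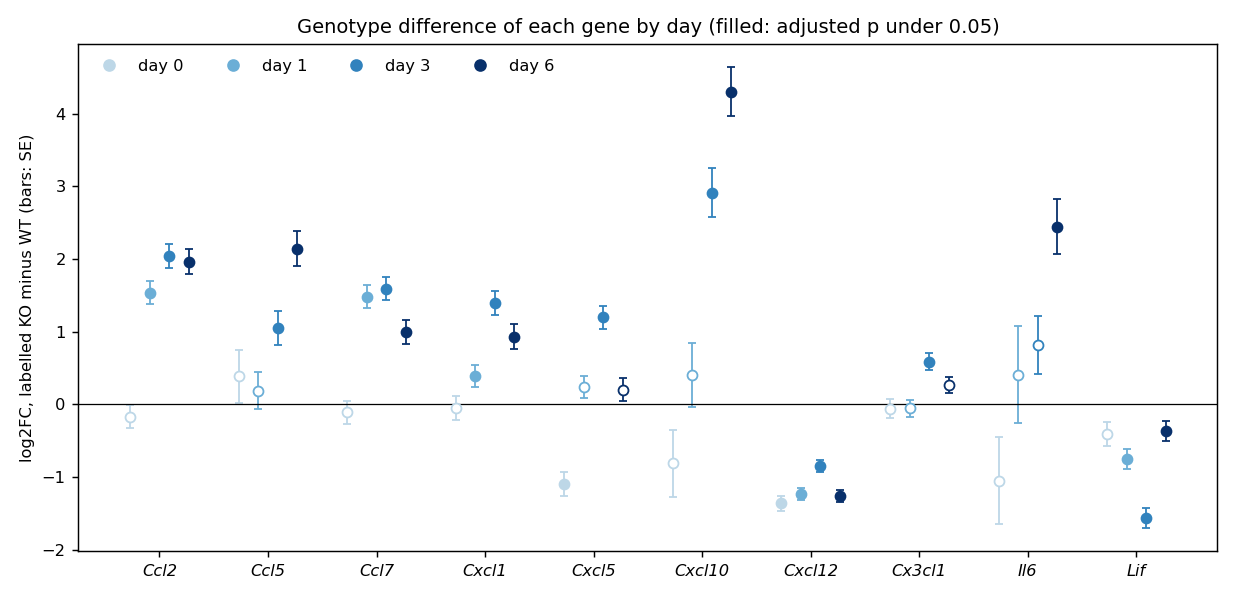
Difference between libraries labelled KO and WT for each of the 10 genes on days 0, 1, 3 and 6 (vertical axis, log2 fold change, bars are SE; filled points have an adjusted p under 0.05). Cxcl12 lay below 0 on every day, and Cxcl10 lay furthest above 0, at 4.30 on day 6.

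The monocyte attractants Ccl2 and Ccl7 and the neutrophil attractants Cxcl1 and Cxcl5 were at their highest in dividing cells and fell after serum withdrawal under both labels, further in WT. By day 6 they had fallen 11.4-fold, 6.15-fold, 6.59-fold and 8.04-fold in WT, and 2.60-fold, 2.85-fold, 3.32-fold and 3.29-fold in KO. All 4 were called on each of the 3 days under each label, and on day 6 the difference between the falls was called for each (interaction log2FC 2.13, 1.11, 0.99 and 1.29).

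For Ccl2, the WT libraries gave 50.8 and 58.8 CPM on day 0, then 12, 10.7 and 10.8 on day 1, 8.32, 6.20 and 4.95 on day 3, and 4.51, 4.88 and 4.99 on day 6. The KO libraries gave 44.1, 46.9 and 55.0 CPM on day 0, then 39.0, 30.0 and 28.3 on day 1, 22.8, 24.5 and 32.9 on day 3, and 21.0, 16.9 and 18.2 on day 6. The groups overlapped on day 0 and were apart on the 3 later days, with every KO library the higher. The difference was -0.17 (log2FC, SE 0.16, adjusted p = 0.548) on day 0, 1.54 (0.16, 5.15e-08) on day 1, 2.04 (0.17, 9.9e-10) on day 3 and 1.96 (0.17, 2.69e-09) on day 6. The drop over the first day of low serum was 4.90-fold in WT and 1.5-fold in KO, and this difference between the drops was called (interaction log2FC 1.71, SE 0.22, adjusted p = 9.83e-05; 1.71 without KO day 1 replicate 2).

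Ccl7, the neighbour of Ccl2 and a ligand of the same receptor, also fell under both labels. It fell in WT from 30.3 and 31.1 CPM on day 0 to 8.41, 6.02 and 6.36 on day 1, 5.44, 5.11 and 5.55 on day 3, and 4.43, 5.59 and 4.95 on day 6. In KO it fell from 26.3, 29.3 and 29.7 CPM to 22.7, 18 and 17.5 on day 1, 13.5, 14.7 and 20.3 on day 3, and 10.7, 11.1 and 8.14 on day 6. All KO libraries were above all WT libraries on days 1, 3 and 6, by a log2FC of 1.48, 1.59 and 1.00 (SE 0.15 to 0.16, adjusted p at most 2.9e-05). On day 0 every KO library was slightly below WT, and the difference missed the threshold (log2FC -0.11, SE 0.15, adjusted p = 0.72). On the length-corrected TPM scale, Ccl2 was 1.66 to 1.88 times Ccl7 in the 2 WT day 0 libraries and 0.866 to 1.01 times on day 6, whereas in KO it was 1.59 to 1.84 times on day 0 and 1.52 to 2.22 times on day 6.

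Cxcl1 in WT went from 63.6 and 62.7 CPM on day 0 to 26.5, 22.2 and 24.3 on day 1, 12.6, 8.93 and 8.24 on day 3, and 9.88, 10.5 and 8.43 on day 6. In KO it went from 62.8, 61.4 and 58.3 CPM to 35.0, 34.3 and 26.4 on day 1, 20.5, 25.9 and 32.2 on day 3, and 22.1, 15 and 17.9 on day 6. The labels overlapped on days 0 and 1 and were apart on days 3 and 6, where KO was higher by a log2FC of 1.40 (SE 0.17, adjusted p = 3.94e-07) and 0.93 (SE 0.17, adjusted p = 9.5e-05). The day 1 difference was called by a narrow margin (log2FC 0.39, SE 0.15, adjusted p = 0.0455), with 2 KO libraries above all WT libraries and 1 inside their range. It lost its call in 7 other settings of the analysis and without any 1 of 15 of the 23 libraries (log2FC 0.31, adjusted p = 0.139 without KO day 1 replicate 2).

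Cxcl5 was the most abundant of the 10 mRNAs on day 0 under both labels, and it was the only one of these 4 called between labels in growing cells. WT gave 307 and 300 CPM on day 0, against 162, 133 and 134 in KO, a log2FC of -1.09 (SE 0.16, adjusted p = 3.35e-05). After 1 day the groups overlapped, with 87.4, 82.5 and 90.9 CPM in WT and 96.3, 127 and 83.2 in KO (log2FC 0.24, SE 0.15, adjusted p = 0.222; 0.02 without KO day 1 replicate 2, the highest of that group). On day 3 every KO library (65.3, 87.4 and 101 CPM) was above every WT library (43.8, 36.3 and 30.5), with a log2FC of 1.2 (SE 0.16, adjusted p = 1.45e-06). On day 6 the groups overlapped again, at 36.1, 36.6 and 40.7 CPM in WT and 50.2, 37.2 and 42.7 in KO (log2FC 0.20, SE 0.16, adjusted p = 0.33). The interaction was called on days 1, 3 and 6, at a log2FC of 1.33, 2.29 and 1.29 (adjusted p = 0.0015, 4.48e-07 and 0.000333), and the day 1 value was 1.09 without KO day 1 replicate 2. Each of those values includes the day 0 difference, with the opposite sign. The early fall in KO (log2FC -0.48, SE 0.15, adjusted p = 0.0102) lost its call on both TPM scales (log2FC -0.34) and without KO day 0 replicate 1 (-0.36) or KO day 1 replicate 3 (-0.35), and was -0.66 without KO day 1 replicate 2. In TPM, Cxcl5 was 2.48 to 2.50 times Cxcl1 in WT on day 0 and 1.12 to 1.33 times in KO.

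**Figure D2:**
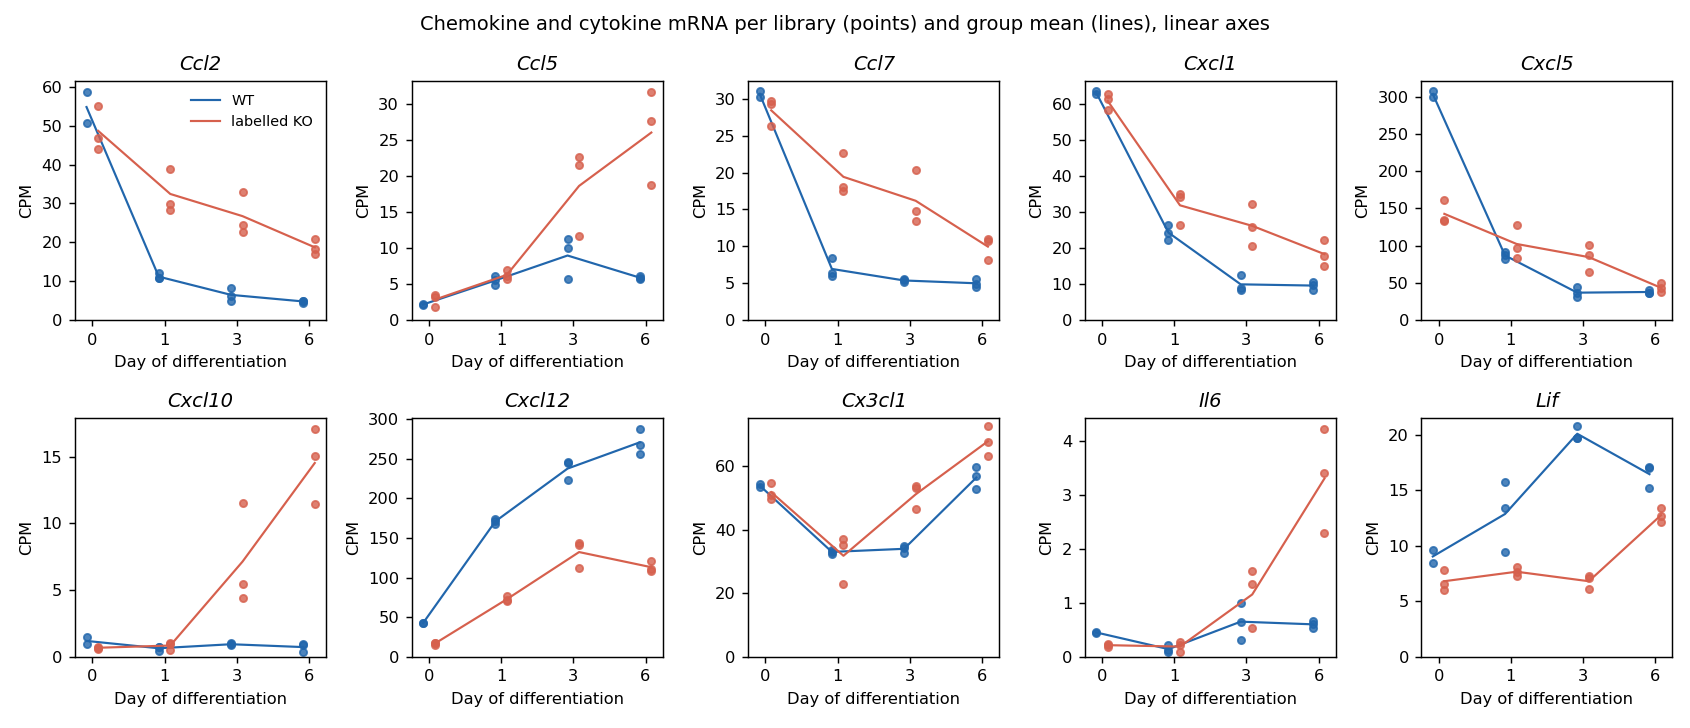
CPM of each of the 10 genes by day (horizontal axis, days 0, 1, 3 and 6; points are libraries, lines join group means; linear axes that differ between panels). Ccl2 and Ccl7 drop within 1 day in WT and slowly in libraries labelled KO, Ccl5, Cxcl10 and Il6 climb in KO on days 3 and 6, and Cxcl12 climbs under both labels with every WT library above every KO library of its day.

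Ccl5, Cxcl10 and Il6 took the opposite direction in KO: all 3 rose between day 0 and day 6, by 9.18-fold, 21.3-fold and 15-fold. For Cxcl10 this is a log2FC of 4.41, and 3.64 on the log2(TPM + 1) scale. In WT, Ccl5 rose 2.71-fold, and neither Cxcl10 nor Il6 was called on day 6. Cxcl10 is a chemokine induced by interferon gamma and a ligand of Cxcr3, and Ccl5 attracts T cells and monocytes.

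Cxcl10 counts were low outside KO days 3 and 6, with 8 to 33 counts in every other library. WT gave 1.45 and 0.926 on day 0, 0.425, 0.721 and 0.769 on day 1, 1.00, 0.953 and 0.868 on day 3, and 0.945, 0.355 and 0.881 CPM on day 6. KO gave 0.681, 0.747 and 0.602 CPM on day 0 and 0.541, 1.00 and 0.985 on day 1, then 11.5, 4.42 and 5.47 on day 3 and 11.4, 15.1 and 17.1 on day 6. Every KO library of days 3 and 6 was above every WT library of the series. The KO minus WT log2FC was 2.91 (SE 0.33, adjusted p = 2.09e-07) on day 3 and 4.30 (SE 0.34, adjusted p = 3.85e-10) on day 6, which corresponds to 19.7-fold on day 6. The first replicate of KO day 3 had both the highest Cxcl10 of that group and the highest summed muscle markers, 8414 CPM against 5703 and 6057 in its partners, and the part of one in the other was not tested. In that library Il6, Lif and Cx3cl1 were also the highest of the group, and Ccl2, Ccl5, Ccl7, Cxcl1, Cxcl5 and Cxcl12 were the lowest. The KO minus WT values of Cxcl10 were smaller on the log2(TPM + 1) scale, 2.14 and 3.46, since the added 1 weighs on low levels. In WT the day 1 change from day 0 (log2FC -0.90, adjusted p = 0.106) was called without KO day 3 replicate 1 (-0.90, adjusted p = 0.04).

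Ccl5 began at 2.24 and 2.08 CPM in WT and at 3.18, 3.45 and 1.85 in KO, and on day 1 it was 4.80, 5.56 and 6.15 in WT and 6.95, 6.15 and 5.73 in KO. The labels overlapped on both days (log2FC 0.39 and 0.19, adjusted p = 0.553 and 0.587). On day 3 WT gave 5.70, 9.97 and 11.2 CPM and KO 11.7, 21.5 and 22.6, with the lowest KO library just above the highest WT library (log2FC 1.05, SE 0.23, adjusted p = 0.000826). On day 6 WT gave 6.06, 5.90 and 5.70 CPM and KO 18.7, 27.7 and 31.7 (log2FC 2.14, SE 0.24, adjusted p = 1.47e-07). Ccl5 rose under both labels within the first day (log2FC 1.34 in WT and 1.15 in KO). Between days 3 and 6 its group mean went from 8.95 to 5.89 CPM in WT and from 18.6 to 26.0 CPM in KO, a step that was not tested. The interaction was not called on day 3 (log2FC 0.67, SE 0.44, adjusted p = 0.39). It was called on day 6 (log2FC 1.76, SE 0.44, adjusted p = 0.00843) and lost its call without WT day 0 replicate 1 (1.66).

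Il6 was close to the limit of detection in most groups, with 2 to 23 counts per library in all WT groups and in KO on days 0 and 1. Its counts in KO were 35, 12 and 30 on day 3 and 52, 79 and 97 on day 6. In CPM, KO day 6 gave 2.29, 3.40 and 4.22 against 0.602, 0.532 and 0.671 in WT, a log2FC of 2.45 (SE 0.38, adjusted p = 1.25e-05; 1.51 on the log2(TPM + 1) scale). On day 3, KO gave 1.58, 0.536 and 1.35 CPM and WT 0.653, 0.997 and 0.304, and the groups overlapped (log2FC 0.82, SE 0.40, adjusted p = 0.102). That difference was called without KO day 3 replicate 2 (1.16, adjusted p = 0.0196) or WT day 3 replicate 2 (1.22, adjusted p = 0.039), and the day 3 interaction (1.87, adjusted p = 0.106) without KO day 3 replicate 2 (2.21, adjusted p = 0.0361). The rise from day 0 to day 6 in KO was 3.91 (log2FC, SE 0.44, adjusted p = 4.25e-08) and 2.11 on the log2(TPM + 1) scale. The drop of Il6 in WT from 10 counts in each day 0 library to 3, 2 and 5 on day 1 had an adjusted p of 0.0324 and was lost without any 1 of the 2 WT day 0 libraries, without WT day 1 replicate 1 or 2, and on the log2(TPM + 1) scale.

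**Figure D3:**
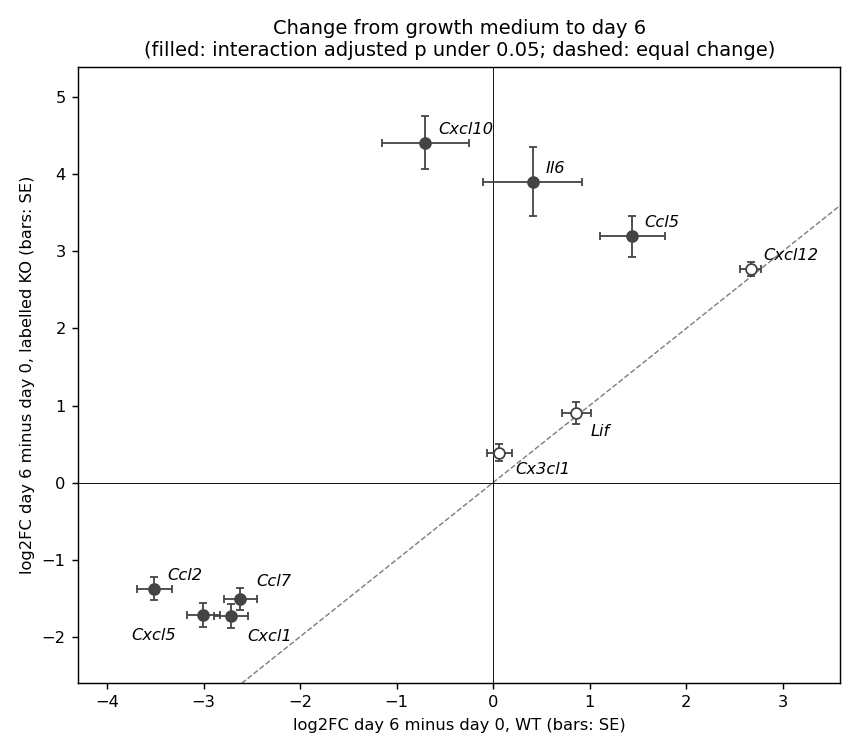
Change from day 0 to day 6 in WT (horizontal axis) and in libraries labelled KO (vertical axis), log2 fold change with SE bars; filled points have an interaction adjusted p under 0.05 and the dashed line marks equal change. Ccl2, Ccl7, Cxcl1 and Cxcl5 lie at the lower left above the line, and Ccl5 lies above it at the upper right. Cxcl10 and Il6 lie furthest above it, and Cxcl12, Lif and Cx3cl1 lie near it.

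Cxcl12, the ligand of Cxcr4 and Ackr3, was lower in every KO library than in every WT library of the same day. WT rose from 42.7 and 42.5 CPM on day 0 to 171, 168 and 174 on day 1, 223, 244 and 246 on day 3, and 257, 288 and 267 on day 6. KO rose from 16.8, 17.9 and 14.9 CPM to 76.2, 70.5 and 71.5 on day 1, 112, 141 and 143 on day 3, and 121, 108 and 111 on day 6. The KO minus WT log2FC was -1.36, -1.23, -0.85 and -1.26 on days 0, 1, 3 and 6 (SE 0.08 to 0.10, adjusted p at most 2.7e-08). The rise to day 6 was 6.35-fold in WT and 6.83-fold in KO, and the interaction missed the threshold on day 6 (log2FC 0.10, SE 0.13, adjusted p = 0.706). On day 3 it was called at 0.52 (SE 0.13, adjusted p = 0.0118), a call lost on the log2(TPM + 1) scale (0.41, adjusted p = 0.0517) and without WT day 0 replicate 1 (0.46) or 2 (0.52). The summed fibroblast markers given above, carried by collagen mRNA, were likewise higher on day 6 than on day 0 and lower in KO, but single markers went both ways. Cd34 was lower in KO on all 4 days (25.5 ± 2.23 CPM in KO and 199.7 ± 18.4 in WT on day 6, log2FC -2.97), as was Col1a1, while on day 6 Ly6a was 540 ± 60.1 and 91.5 ± 14.8 and Dcn, named after its values were seen, 49.4 ± 10.6 and 29.5 ± 6.01. Their part in the Cxcl12 values was not tested. In RNA from whole cultures, fewer cells of a kind and less RNA per cell cannot be told apart.

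Lif differed from Il6 although both belong to 1 cytokine family. In WT it rose from 9.59 and 8.47 CPM on day 0 to 13.4, 15.7 and 9.44 on day 1 and 19.7, 19.7 and 20.8 on day 3, and stood at 17.1, 17.0 and 15.2 on day 6. In KO it was not called against day 0 before day 6, at 7.80, 6.58 and 6.02 CPM on day 0, 8.08, 7.24 and 7.65 on day 1 and 7.29, 7.06 and 6.06 on day 3, and reached 13.4, 12.7 and 12.2 on day 6. All KO libraries were below all WT libraries on each day. The difference was called on all 3 days in low serum: log2FC -0.75 on day 1 (SE 0.14, adjusted p = 0.000149), -1.56 on day 3 (0.14, 4.03e-09) and -0.37 on day 6 (0.13, 0.0283). On day 0 it missed the threshold (-0.41, SE 0.16, adjusted p = 0.085) and passed it with scaling by library size only (-0.47, adjusted p = 0.0466) or without WT day 1 replicate 3 (-0.41, adjusted p = 0.0288). The day 6 call was lost without KO day 6 replicate 2 or 3 or WT day 6 replicate 1 or 2 (log2FC -0.36 to -0.33), and the WT rise on day 1 (0.51, adjusted p = 0.00773) without WT day 0 replicate 2 (0.42, adjusted p = 0.0976). On day 6 the rise from day 0 was 1.82-fold in WT and 1.87-fold in KO, so the interaction that was called on day 3 (-1.15, SE 0.21, adjusted p = 0.000682) was 0.04 on day 6 (adjusted p = 0.95).

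Cx3cl1 had the narrowest span of the 8 chemokines over the days, with log2FC from day 0 between -0.71 and 0.39 under both labels. WT went from 54.4 and 53.4 CPM on day 0 to 33.7, 33.1 and 32.2 on day 1, 32.7, 34.3 and 35.0 on day 3 and 56.8, 59.6 and 52.8 on day 6. KO went from 51.0, 54.8 and 49.6 CPM to 35.2, 23 and 37.2 on day 1, with replicate 2 lowest, then 53.6, 46.6 and 53.2 on day 3 and 72.7, 63.1 and 67.7 on day 6. The labels overlapped on day 1 (log2FC -0.06, and 0.11 without KO day 1 replicate 2, not called either way). Both labels fell 1.63-fold on day 1 (KO log2FC -0.71, and -0.51 without KO day 1 replicate 2, called both ways). On day 3 the change from day 0 was -0.67 (log2FC) in WT and -0.02 in KO (adjusted p = 0.897), and the labels were apart (log2FC 0.59, SE 0.11, adjusted p = 0.000198). On day 6 all KO libraries were above all WT libraries, but the difference just missed the threshold (0.27, SE 0.11, adjusted p = 0.0571) and passed it in 5 other settings and without any 1 of the KO day 1 libraries. The day 3 interaction (0.65, SE 0.17, adjusted p = 0.0135) was lost without WT day 0 replicate 1 (0.58) or 2 (0.66).

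Over the days, the number of members called against day 0 was 9, 8 and 7 of 10 in WT on days 1, 3 and 6, where 54.7%, 58.2% and 63.6% of tested genes were called. In KO it was 7, 8 and 10, against 52.3%, 57.6% and 70%. Of all called genes, 51.2% in WT and 52.2% in KO were higher on day 6, and 63.5% and 58.9% on the log2(TPM + 1) scale. These comparisons share the day 0 libraries of each label, so their calls are not independent of each other. On day 6 the 10 genes split into 3 higher and 4 lower in WT and into 6 higher and 4 lower in KO.

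Levels can be compared between genes as TPM, a transcript share that corrects for transcript length. On day 0 in WT the order was Cxcl5 (317 ± 17.2 TPM, SD, n = 2), then Ccl2 (138 ± 8.90) and Cxcl1 (128 ± 6.14), whose values overlapped, then Ccl7 (77.9 ± 1.53). Cx3cl1 (27.8 ± 1.38) and Cxcl12 (26.3 ± 1.22) overlapped below them, and Ccl5, Lif, Cxcl10 and Il6 were each under 11 TPM. By day 6 in WT, Cxcl12 led with 217 ± 13.8 TPM (n = 3), clear of Cxcl5 at 45.1 ± 7.06. On day 6 in KO, Ccl5 (124 ± 27.6 TPM) and Cxcl12 (85.2 ± 8.49) overlapped at the top, and Ccl2, Cxcl5, Cxcl1 and Cx3cl1 followed at 49.1 to 36.4 TPM, each overlapping the next. Cxcl10 and Ccl7 overlapped at 25.4 ± 3.97 and 26.4 ± 4.90 TPM in that group, and Lif (5.25 ± 0.512) and Il6 (4.95 ± 1.46) were the lowest.

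The 10 genes together summed to 731 ± 20.7 TPM in WT on day 0 (n = 2) and to 385 ± 15, 366 ± 9.75 and 387 ± 25.7 on days 1, 3 and 6 (n = 3 each). In KO the sum was 499 ± 16.4, 431 ± 47.4, 482 ± 80 and 443 ± 16.1 TPM on days 0, 1, 3 and 6. The share of single genes in the sum differed between days. Cxcl12 made up 3.6% of it in WT on day 0 and 56.2% on day 6, against 1.96% and 19.2% in KO. Cxcl5 made up 43.4% and 11.6% in WT and 28.6% and 10.6% in KO.

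**Figure D4:**
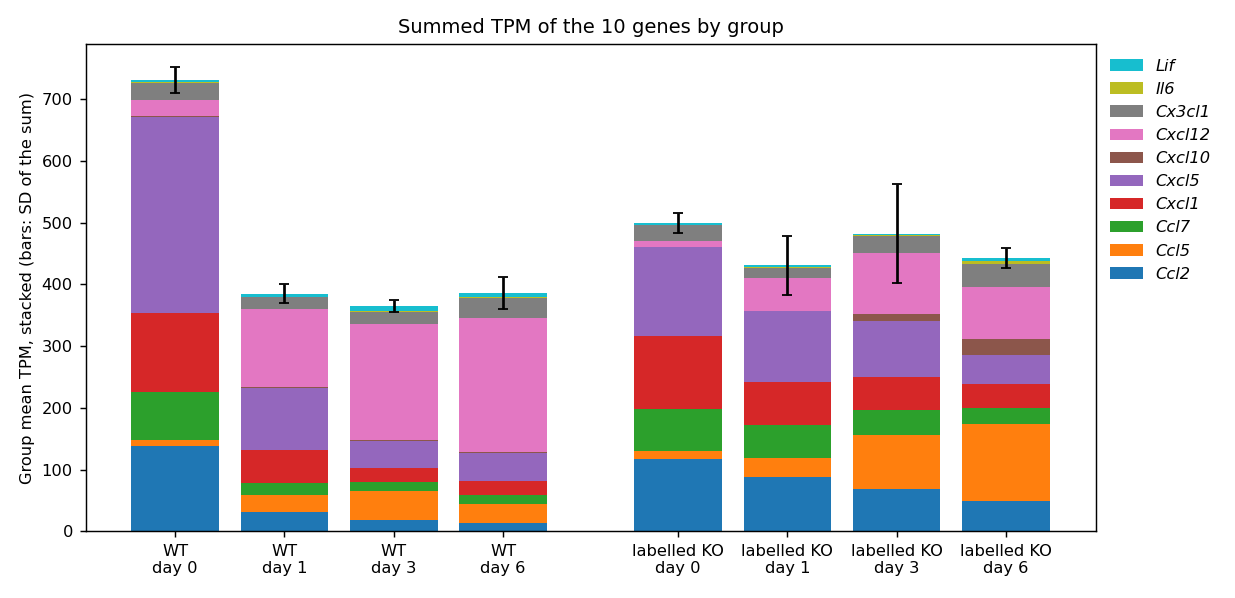
Summed TPM of the 10 genes in each of the 8 groups, stacked by gene (vertical axis, group mean TPM from 0; error bars are the SD of the sum). The WT day 0 bar is the tallest at 731 TPM with Cxcl5 its largest part, and Cxcl12 is the largest part of the WT bars on days 1, 3 and 6.

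Some members moved together across the 23 libraries, given here as Pearson's r on log2 CPM and as a description, since the libraries share their groups. Ccl2 and Ccl7 had an r of 0.97, Cxcl1 and Cxcl5 0.94, and Cxcl10 and Il6 0.86, while Cxcl12 and Cxcl1 had -0.88. Among all tested genes, Cxcl12 was most like Col6a1 (r = 0.99), Fndc1 (0.99) and Col6a2 (0.99), of which Col6a1 and Col6a2 encode chains of collagen VI. Ccl5 was most like Stat2 (0.94), Ifi27l2a (0.94) and Mamstr (0.94). Among the genes most like Cxcl10 were Abcc9 (0.97) and Gbp10 (0.96), and Il6 was most like Asb16 (0.93), Apol9b (0.92) and Apol9a (0.92). Levels of Abcc9, Gbp10 and Asb16 were low in WT, with group means of at most 0.0144, 0.101 and 0.514 CPM. They were highest in KO on day 6, at 3.43, 7.62 and 5.28 CPM. Stat2, a transcription factor of the type I interferon response, was higher in KO by a log2FC of 0.99 on day 3 and 2.08 on day 6. The nearest genes to Ccl2 after Ccl7 were D10Wsu102e (0.94) and Sirt1 (0.94), and to Ccl7 after Ccl2 D10Wsu102e (0.95) and Mtbp (0.95). Those near Cxcl1 included Acsl5 (0.95) and Samm50 (0.95), and those near Cxcl5 included Thg1l (0.92). Lif was most like Plvap (0.94), Trdc (0.94) and Fzd7 (0.94), and Cx3cl1 most like Reep6 (0.88), Slc30a1 (0.88) and Rabl6 (0.87).

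Most receptors of these ligands had too few counts to test. Of 16 receptor genes, 5 had enough counts to test (Cxcr4, Ackr3, Il6ra, Il6st and Lifr). The highest count in any library was 1 for Ccr2, 8 for Cxcr2, 2 for Cxcr3 and 1 for Cx3cr1. Il6st, the shared signalling chain of the Il6 family, was 210 ± 15.2 CPM in KO and 111 ± 17.0 in WT on day 6 (log2FC 0.92, SE 0.10, adjusted p = 7.12e-08; n = 3 each, edgeR), and every KO library was the higher. Il6ra, the Il6-binding chain, was lower in KO on that day (12.1 ± 2.51 against 21.3 ± 4.03 CPM, log2FC -0.82). Both receptors of Cxcl12 were called lower in KO on day 6, Ackr3 with 120 ± 2.63 against 151 ± 15.9 CPM (log2FC -0.34) and Cxcr4, named after its value was seen, with a log2FC of -0.49. Counted over the 5 tested receptors, 0 were higher and 1 lower in KO on day 0, 1 and 3 on day 1, 1 and 2 on day 3, and 1 and 3 on day 6, with medians of -0.02, -0.65, -0.22 and -0.34 against the all-gene medians given above. Of all tested genes, 17.5%, 42.2%, 43.2% and 42.9% were called on those days.

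Of 26 other chemokine genes, 7 had enough counts to test. On day 6, 4 were higher and 2 lower in KO (median log2FC 1.25, against 0.004 over all tested genes), where 42.9% of all tested genes were called, 22% higher and 20.8% lower. Cxcl9, a Cxcr3 ligand encoded near Cxcl10, was 7.28, 11.4 and 15.2 CPM in KO against 0.903, 0.577 and 0.461 in WT (log2FC 4.12, SE 0.43, adjusted p = 1.45e-07), and was at 0 counts in every day 0 library. The other 3 that were higher, named after their values were seen, were Cxcl13 (3.75 ± 0.762 CPM in KO against 0.043 ± 0.0744 in WT), Ccl8 (1.67 ± 0.36 against 0.535 ± 0.229) and Ccl25 (2.09 ± 0.243 against 0.876 ± 0.141). The lower genes, named likewise, were Cxcl16 (0.0292 ± 0.0253 against 1.43 ± 0.445 CPM) and Ccl9 (1.34 ± 0.0572 against 2.46 ± 0.566). On days 0, 1 and 3 the list gave 1 higher and 1 lower, 0 and 2, and 3 and 2.

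In the pathways behind these genes, calls went both ways. Their counts stand beside the shares of all tested genes given above. On day 6 the NF-kappaB, mRNA decay and other cytokine lists had fewer called genes than that share, and the Jak-Stat list had more. On day 0 each of these lists had more called genes than the share of that day (17.5%). On day 1 only the NF-kappaB list had fewer, and on day 3 the lists stood to the share as on day 6. Among 13 genes of Jak-Stat signalling, 6 were higher and 4 lower in KO on day 6 (median log2FC 0.08). Stat5a, a transcription factor of cytokine signalling, was higher in KO on day 6 (83.3 ± 2.48 against 43.1 ± 3.00 CPM, log2FC 0.95), and Cish was lower on day 1 (-1.49). On days 0, 1 and 3 the list gave 2 higher and 4 lower, 2 and 6, and 4 and 5. Among 19 tested genes of the NF-kappaB pathway, 5 were higher and 1 lower on day 6 (median 0.15), and 4 and 2, 2 and 3, and 2 and 2 on days 0, 1 and 3. Traf1, an adaptor of the pathway and one of its targets, was higher in KO on day 0 (10.7 ± 1.28 against 4.44 ± 0.126 CPM, log2FC 1.27), Bcl3 was lower on days 0 and 1 (-0.93 and -1.02), and Tnfaip3, a feedback inhibitor, was higher on day 0 (0.70) and lower on day 3 (-0.56). Among 10 genes for proteins that bind or degrade inflammatory mRNAs, 1 was higher and 1 lower on day 6 (median 0.0004), and 0 and 3, 2 and 3, and 2 and 2 on days 0, 1 and 3. Zc3h12a, an RNase that degrades Il6 mRNA, was lower in KO on day 0 (26.2 ± 3.26 against 50.5 ± 0.394 CPM, log2FC -0.95), and Zfp36, which promotes decay of AU-rich mRNAs, was higher on day 6 (0.74).

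Among 8 tested genes of the Il6 family other than Il6 and Lif, 1 was higher and 3 lower in KO on day 0, 1 and 3 on day 1, 3 and 4 on day 3 and 2 and 2 on day 6 (medians -0.13, -0.14, -0.07 and 0.03). The share called among all tested genes was 17.5%, 42.2%, 43.2% and 42.9% on those days, and this small list was above it on each. Cntfr, the receptor of ciliary neurotrophic factor, was higher in KO on all 4 days (19.1 ± 3.88 against 6.74 ± 1.02 CPM on day 3, log2FC 1.5). Il11 was lower on day 0 (log2FC -1.59). Osmr, the receptor of oncostatin M, rose to day 6 under both labels (log2FC 1.83 in WT and 2.23 in KO). Among 11 other tested cytokines, 1 was higher and 2 lower in KO on day 0, 0 and 5 on day 1, 1 and 3 on day 3 and 2 and 1 on day 6 (medians -0.36, -0.30, -0.07 and 0.14). Il33, an alarmin of the Il1 family, was lower in KO on days 0, 1 and 3 (5.08 ± 1.34 against 29.9 ± 4.09 CPM on day 1, log2FC -2.55). Csf1, the macrophage growth factor, was lower in KO on each day by a log2FC of -0.55 to -0.20, and Il34, which acts on the same receptor, was higher on days 0 and 3 (0.46 and 0.34).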

How the data were processed

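Poly(A)-selected RNA from 23 libraries of 8 groups was analysed. The deposited estimated counts and the deposited TPM values per gene were made by the authors. The submitters' processing notes name Bowtie2, RSEM and mm10, and versions, annotation and strand setting are not given in the sources used here. Per the file headers, each column is 1 library. The counts were rounded to whole numbers, and 12326 of 32793 genes were at 0 in every library. With edgeR 4.0.16 under R 4.3.3, genes passed filterByExpr with a minimum count of 10, needed in about as many libraries as the smallest group holds, and a total of at least 15, libraries were scaled by TMM, and quasi-likelihood F-tests were run in 1 group-means model over all libraries, with Benjamini-Hochberg adjustment over 14187 genes in each of 13 contrasts. WT day 0, with 2 libraries, borrowed its spread from all groups. DESeq2 1.42.0, limma 3.58.1 on log2(TPM + 1) and log2(TPM + 0.1), other scalings and filters, and leaving out each library were alternatives.

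On simulated counts for the day 6 comparison (13781 genes, 196 changed), 88.4% of 2-fold and 94.1% of 4-fold changes were recovered, and 6.28% of calls were false. In that simulation all groups shared each gene's mean, apart from the changed genes in KO day 6. In the data 42.9% of tested genes were called on day 6, so these rates may not hold there. Depth was 22197606 to 23684077 counts per library, and precision at low counts is limited by counting error as well as by n. Members and gene lists were chosen with earlier results of these data known, so no list was tested as a set. All members are named. From each other list, at most 3 genes per kind of comparison are named, those with the largest change among called genes with a group mean of at least 5 CPM, and any exception is stated as such. Some genes that this rule names are not reported here. The 3 genes most like each member had the highest Pearson's r, leaving out Gm and Rik gene models. Of the 10 genes, 10 were placed on the RefSeq annotation of GRCm38.p6 and 6 matched its promoter table.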

Additional observations from a re-analysis of the deposited data

Results flagged for a closer look

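For 18 results, the KO minus WT difference on a later day departed from that in growing cells by an interaction test (edgeR quasi-likelihood, adjusted p under 0.05). Values are log2 differences of the KO and WT changes since day 0. On day 1 these were Ccl2 (1.71), Ccl7 (1.59) and Cxcl5 (1.33). On day 3 they were Ccl2 (2.21), Ccl7 (1.70), Cxcl1 (1.45), Cxcl5 (2.29), Cxcl10 (3.73), Cxcl12 (0.52), Cx3cl1 (0.65) and, in the other direction, Lif (-1.15). On day 6 they were Ccl2 (2.13), Ccl5 (1.76), Ccl7 (1.11), Cxcl1 (0.99), Cxcl5 (1.29), Cxcl10 (5.12) and Il6 (3.50). On the log2(TPM + 1) scale the Cxcl10 values were 2.65 on day 3 and 3.97 on day 6, and Il6 on day 6 was 1.88. All 18 share the 2 WT libraries of day 0. Without WT day 0 replicate 1, the calls of Ccl5 on day 6 and of Cxcl12 and Cx3cl1 on day 3 were lost, and the latter pair was also lost without replicate 2. The lone remaining library was then assumed to vary like the other groups.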

How the results depend on the processing

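Every count of members called stayed within 1.5 times its main value in all settings run, which included counts at an adjusted p under 0.01. The main model did not pair libraries, and in 0 contrasts did every same-numbered pair correlate above 0.1 in its deviations from the group means. With only 2 or 3 libraries per group, this cannot show whether libraries sharing a replicate number were paired. With the number as a replicate block, the counts for KO against WT were again 2, 5, 9 and 8 on days 0, 1, 3 and 6. All reversals were of differences close to 0 that were not called. Cx3cl1 on KO day 3 against day 0 was 0.048 with library size only, 0.0586 on log2(TPM + 1), 0.0606 on log2(TPM + 0.1), and -0.0541 to 0.0444 when 1 library was left out. Lif on KO day 3 against day 0 was 0.0652 with library size only, 0.0622 on log2(TPM + 1), 0.0832 on log2(TPM + 0.1), 8.7e-05 with the replicate block, and -0.0816 to 0.0883 with 1 library left out. The Cx3cl1 interaction on day 1 was -0.0337 with RLE scaling, -0.0336 with DESeq2, -0.028 with only the groups compared, -0.0203 without a filter, -0.0441 with a mean count of at least 50, -0.00303 on log2(TPM + 1), -0.00625 on log2(TPM + 0.1), and -0.13 to 0.14 with 1 library left out. The Cxcl12 interaction on day 6 was -0.000399 on log2(TPM + 1). The Lif interaction on day 6 was -0.0722 on log2(TPM + 1), -0.0308 on log2(TPM + 0.1), -0.0132 with the replicate block, and -0.0949 to 0.13 with 1 library left out. With 1 library left out, Cx3cl1 for KO against WT on day 1 ranged from -0.18 to 0.11, Cxcl10 in WT on day 3 from -0.62 to 0.0607, and Il6 in KO on day 1 from -0.49 to 0.14. The cause was not tested. Low counts limit Il6 and Cxcl10 outside KO days 3 and 6. The largest moves in the median log2FC of all genes were on log2(TPM + 1), for KO against WT on day 3 from 0.04 to -0.08 and, against day 0, for WT on day 3 from 0.02 to 0.13. In some other contrasts library size only moved it further. For KO on day 1 against day 0 it went from 0.04 to 0.12 with library size only and to 0.11 on log2(TPM + 1).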
